A study of Homo sapiens with 6 samples.

Results

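Chemokine genes expressed by tumour cells were examined in MDA-MB-231, an established triple-negative line of human breast cancer, after treatment with NCD (nitidine chloride, a plant alkaloid). The 10 genes, CXCL1, CXCL2, CXCL3, CXCL8, CXCL16, CX3CL1, CCL2, CCL5, CCL20 and CCL28, were taken by symbol from the 63241 Ensembl genes of the count tables. Cells received 5 μM NCD or 0.1% DMSO, the vehicle, for 24 h, and 3 RNA-seq libraries were made per group. The comparison asks how the drug changed the tumour cells' own transcripts. The free-text descriptions of NCD libraries 2 and 3 give other cell line numbers (MDA-MB-232 and MDA-MB-233), while their cell line field gives MDA-MB-231. Nothing in the labels says that the 3 libraries of a group came from separate cultures, so p-values measure the spread between these libraries, which may be technical. The cells were cultured alone, as 1 line without immune or stromal cells, so the data concern transcripts that tumour cells make and neither secreted protein nor the cells that respond to it.

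Chemokines are small secreted proteins that bind G protein-coupled receptors on leukocytes and direct their migration. CXCL1, CXCL2, CXCL3 and CXCL8 carry a Glu-Leu-Arg (ELR) motif, act mainly through CXCR2 (CXCL8 also through CXCR1) and are best known for attracting neutrophils. Their genes are classical targets of NF-κB and AP-1, and their short-lived mRNAs are destroyed through AU-rich elements. CXCL16 and CX3CL1 differ from the rest of the family in being made as transmembrane proteins, from which a soluble chemokine is shed by proteases. CCL2 attracts monocytes, CCL5 attracts T cells and monocytes, CCL20 is the ligand of CCR6, and CCL28 is a mucosal chemokine that binds CCR10 and CCR3.

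CXCL1, CXCL2, CXCL3 and CXCL8 lie in 1 chemokine cluster of 9 protein-coding genes that spans 359 kb of chromosome 4 (GENCODE release 29, GRCh38). Sequence before the start site is shown for them because they are the most abundant members per kilobase of exon. They also share a κB element, the binding motif of NF-κB, at nearly the same place. The sequences come from RefSeq (GRCh38.p14), which had an entry for 6 of the 10 members. CXCL16, CX3CL1, CCL2 and CCL5 had none. Each line gives the 150 bases before the RefSeq start, 5′ to 3′ on the strand of the gene, with motif letters in capitals. The GENCODE 29 spans of CXCL2, CXCL3 and CXCL8 begin within these windows, and that of CCL20 before its window. The windows are chr4:73869243-73869392 on the plus strand for CXCL1, chr4:74099196-74099345 on the minus strand for CXCL2, chr4:74038690-74038839 on the minus strand for CXCL3, chr4:73740419-73740568 on the plus strand for CXCL8 and chr2:227813692-227813841 on the plus strand for CCL20. CCL20 is shown as a member outside this cluster, on chromosome 2, with a more loosely matching element.
CXCL1: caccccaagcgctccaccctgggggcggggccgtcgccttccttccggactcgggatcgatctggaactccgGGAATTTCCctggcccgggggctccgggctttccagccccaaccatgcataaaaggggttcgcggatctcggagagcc
CXCL2: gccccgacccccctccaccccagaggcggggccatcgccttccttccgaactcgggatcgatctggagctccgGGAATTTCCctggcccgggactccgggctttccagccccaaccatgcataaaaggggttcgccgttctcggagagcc
CXCL3: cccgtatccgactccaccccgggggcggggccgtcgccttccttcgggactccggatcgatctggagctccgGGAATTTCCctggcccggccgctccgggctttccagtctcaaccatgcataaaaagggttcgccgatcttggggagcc
CXCL8: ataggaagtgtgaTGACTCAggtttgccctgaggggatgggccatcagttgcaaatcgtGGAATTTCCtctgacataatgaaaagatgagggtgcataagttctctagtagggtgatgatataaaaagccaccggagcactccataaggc
CCL20: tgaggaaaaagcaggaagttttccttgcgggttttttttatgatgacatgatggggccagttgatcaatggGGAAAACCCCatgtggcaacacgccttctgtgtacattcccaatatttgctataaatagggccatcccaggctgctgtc

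The capitals mark GGAATTTCC in CXCL1, CXCL2, CXCL3 and CXCL8. The 9 letters GGAATTTCC, searched on both strands over the 250 bases before each start, occurred in 0.413% of the 35116 promoters in the table. They began 78 bases before the start in CXCL1 and CXCL3, 77 in CXCL2 and 91 in CXCL8. A looser κB pattern, GGG, any 3 bases and then TTCC, which overlaps the first motif, occurred in 5.67% of promoters, and was found in CXCL1, CXCL2 and CXCL3 and, on the opposite strand 79 bases before the start, in CCL20, where the capitals mark it. CXCL8 lacked the looser pattern. TGANTCA, the AP-1 motif, occurred in 6.57% of promoters, and among the 6 members only in CXCL8, 137 bases before the start, also in capitals. Neither start of CCL28 had a match to any of the 3 motifs. Of 27 other chemokine ligands with an entry, CXCL5 and CXCL6 also held GGAATTTCC, and CXCL10 and CXCL11 held it on the opposite strand. The windows of CXCL1, CXCL2 and CXCL3 were from 86.7% to 89.3% identical to each other after alignment, and from 47.3% to 51.3% identical to that of CXCL8. A match describes the letters only, and binding was not measured.

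**Figure D1:**
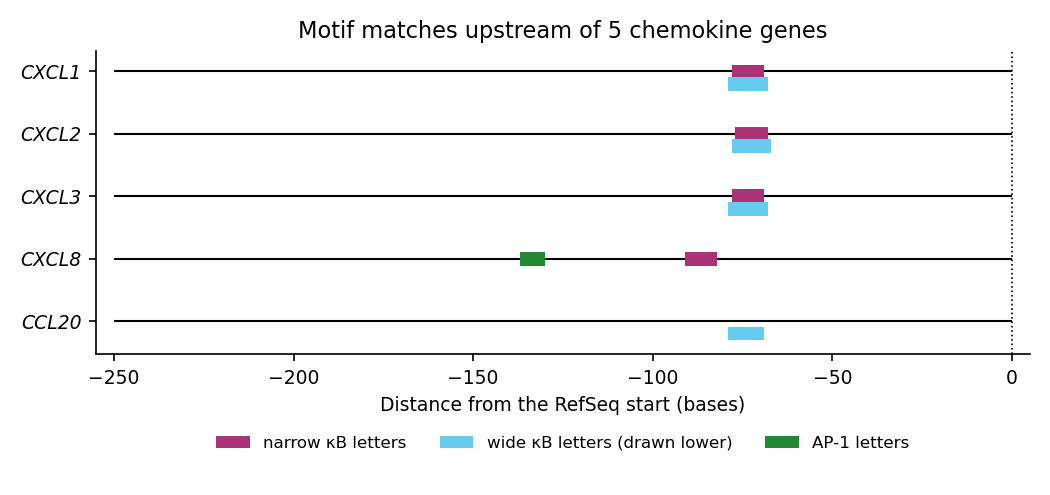
Motif matches in the 250 bases before the RefSeq start of 5 chemokine genes, by distance from the start in bases. Purple boxes are GGAATTTCC, blue boxes the looser κB pattern and the green box the AP-1 letters. CXCL1, CXCL2 and CXCL3 hold a κB match 77 or 78 bases before the start, CXCL8 at 91 bases, with an AP-1 match at 137 bases, and CCL20 only a looser match.

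The DMSO libraries held between 18223594 and 19410833 counts and the NCD libraries between 18232169 and 21629653, and log2 CPM (counts scaled to library size by edgeR's TMM) correlated at 0.9854 or more within a group and at 0.896 or less between groups. Of 15295 genes that passed the filter on low counts, 2067 were called higher and 2669 lower with NCD, by a Benjamini-Hochberg adjusted p below 0.05 in edgeR's quasi-likelihood fit and an absolute log2 fold change above 1. The share of called genes that were higher was 43.6%, and 56.2% when libraries were scaled by their totals, a scaling that moved the median over all tested genes from 0.04 to 0.23 on the log2 scale. Markers of other cells were low, apart from a few named below. Of 9 leukocyte markers, 7 had at most 3 counts in any library, and the 9 summed to between 1.53 and 1.87 CPM with DMSO and between 0.983 and 1.66 CPM with NCD. The others, CSF1R and CD14, moved in opposite directions. CSF1R had 29, 24 and 18 counts under DMSO and 15, 7 and 16 under NCD, and CD14 2, 6 and 9 against 22, 12 and 11. Their log2 fold changes were -1.18, called lower, and 1.11, without a call (edgeR adjusted p = 0.0146 and 0.0690). Of 7 fibroblast markers, 5 had at most 3 counts, and COL1A2 was at 0 in every library, but the summed level was from 4.19 to 5.54 CPM with DMSO and from 18.6 to 19.9 CPM with NCD, through COL1A1 and PDGFRB. The line was cultured alone, and whether any other cells had a part in the chemokine results was not tested. The 5 endothelial markers summed to between 15.2 and 21.2 CPM with DMSO and between 15.6 and 18.0 CPM with NCD, mostly through KDR and TIE1. KDR stood at 12.5 CPM with DMSO and 9.17 CPM with NCD, and TIE1 at 4.60 and 6.38 CPM. Their log2 fold changes were -0.45 and 0.47 (edgeR adjusted p = 0.0363 and 0.0149), both within the fold threshold. As markers of this mesenchymal-like line, 6 genes summed to between 6277 and 6551 CPM with DMSO and between 3788 and 4081 CPM with NCD. Of the 6, 4 were called lower and 0 higher, all 6 were lower at any fold, and the median log2 fold change was -1.46. Over all tested genes 17.5% were called lower and 13.5% higher, and 34.1% were lower at any fold. ZEB1, a mesenchymal transcription factor, had -3.10, the hyaluronan receptor CD44 and the membrane linker MSN -1.82 each, and the receptor kinase AXL -1.10, which lost its call with library totals. VIM, a filament gene and the most abundant of them, stood at 3056 ± 100 CPM under DMSO and 2638 ± 133 CPM under NCD (SD, n = 3 each). ESR1 and PGR, the hormone receptor genes that triple-negative cells lack, had at most 7 counts in any library. ERBB2, which encodes HER2, the third receptor of that definition, was detected at 37.2 ± 1.76 CPM under DMSO and 61.0 ± 2.32 CPM under NCD (SD, n = 3 each), a difference of 0.71 on the log2 scale (edgeR adjusted p = 1.92e-05) that stayed below the fold threshold. In bulk RNA, a change in every cell and a change in the share of cells that express a gene cannot be told apart.

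All 4 ELR chemokines were higher with NCD, from 1.23-fold for CXCL8 through 1.71-fold for CXCL1 and 2.55-fold for CXCL3 to 3.61-fold for CXCL2. CXCL16 was 5.75-fold higher, from a very low level. CX3CL1 lay above its DMSO values, and CCL28 had no call. Of the 7 members that passed the filter, 3 were called higher (CXCL2, CXCL3 and CXCL16) and 0 lower, against a background of 13.5% of tested genes called higher and 17.5% called lower. At any fold, 6 of the 7 had an adjusted p below 0.05 and were higher, and none was lower, where 35.3% of tested genes were higher and 34.1% lower. The NCD libraries all lay above the DMSO libraries for 6 of the 7 tested members, against 37.2% of tested genes. The median of the 7 log2 fold changes was 0.77, and over all tested genes 0.04. These counts do not cover CCL2, CCL5 and CCL20, which fell below the filter, and they include CXCL16, which passed it only with the help of the NCD libraries, where it is high. With at least 10 counts required in every library, CXCL16 dropped out, 2 of 6 members were called higher, 5 were higher at any fold and the median was 0.75.

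**Figure D2:**
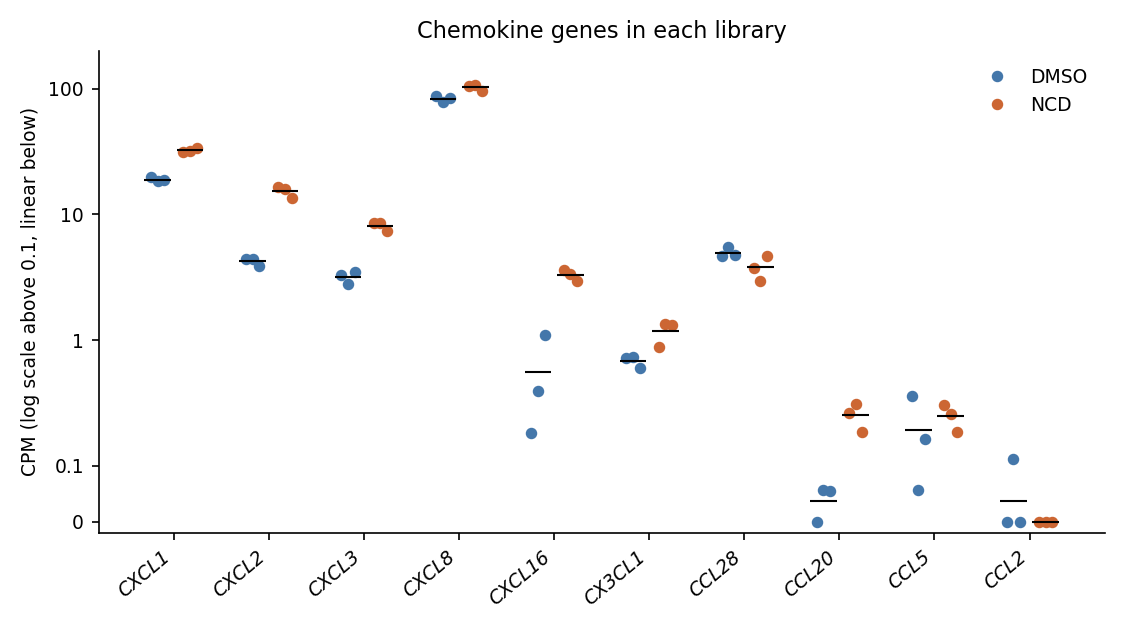
CPM of the 10 chemokine genes in each of 3 DMSO and 3 NCD libraries, with a line at the group mean. The axis is logarithmic above 0.1 CPM and linear below. CXCL8 is the most abundant at 83.3 CPM with DMSO and 102 CPM with NCD, the groups are apart for CXCL1, CXCL2, CXCL3, CXCL8, CXCL16, CX3CL1 and CCL20, and they overlap for CCL28, CCL5 and CCL2.

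CXCL2 (chromosome 4, 74097035 to 74099293, minus strand), a neutrophil attractant also known as MIP-2α, was counted 73, 78.19 and 71 times under DMSO and 379.63, 306 and 287.26 times under NCD. The lowest NCD library was well above the highest DMSO library. Its level went from 4.23 ± 0.297 CPM under DMSO to 15.3 ± 1.68 CPM under NCD (SD, n = 3 each), or 1.85 ± 0.13 (SE) as log2 fold change, at a Benjamini-Hochberg adjusted p = 2.05e-06 by the quasi-likelihood test of edgeR.

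CXCL3 (chromosome 4, 74036589 to 74038807, minus strand), the neighbouring paralog, had 55, 49 and 63 counts under DMSO and 194.37, 165 and 158.12 under NCD, and the groups did not overlap. Its level went from 3.18 ± 0.360 CPM under DMSO to 8.13 ± 0.659 CPM under NCD (SD, n = 3 each), or 1.35 ± 0.14 (SE) as log2 fold change (edgeR adjusted p = 3.30e-05).

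CXCL1 (chromosome 4, 73869393 to 73871242, plus strand), first described as melanoma growth-stimulating activity, had 329, 322.81 and 339 counts under DMSO and 717, 612 and 725.62 under NCD. All NCD libraries were higher and the spread within each group was small. The level was 18.9 ± 0.822 CPM under DMSO and 32.3 ± 1.37 CPM under NCD (SD, n = 3 each), or 0.77 ± 0.08 (SE) as log2 fold change (edgeR adjusted p = 2.28e-05). CXCL1 therefore passed on p and stayed under the fold threshold of 1, and its interval from 0.59 to 0.95 also lay under it.

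CXCL8 (chromosome 4, 73740506 to 73743716, plus strand), or interleukin-8, a potent neutrophil attractant, showed 1460, 1376 and 1533 counts under DMSO and 2381, 2048 and 2070 under NCD. It was the most abundant member in every library. In CPM the groups were 83.3 ± 5.11 (SD, n = 3) and 102 ± 4.99 (SD, n = 3), close together but not overlapping. The log2 fold change came to 0.29 ± 0.07 (SE; edgeR adjusted p = 0.00418, 95% interval from 0.14 to 0.45), so the interval of CXCL8 lay below those of CXCL1, CXCL2 and CXCL3.

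**Figure D3:**
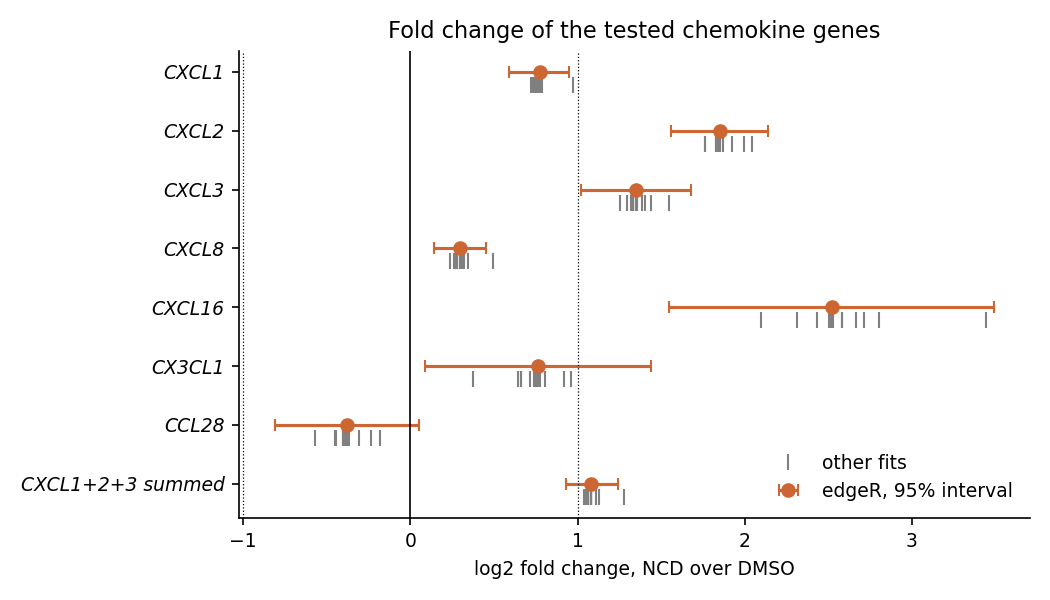
Log2 fold change, NCD over DMSO, of the 7 tested chemokine genes and of the summed CXCL1, CXCL2 and CXCL3 counts, with 95% intervals from edgeR and grey ticks for the other fits. Dotted lines mark the fold threshold. CXCL2, CXCL3 and CXCL16 lie above it, CXCL1 and CXCL8 between 0 and the threshold, and the interval of CCL28 spans 0.

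CXCL1, CXCL2 and CXCL3 are near-identical in part, and reads can be shared between them. Of all 50-base stretches in the GENCODE transcripts of each gene, 4.81% in CXCL1, 12.5% in CXCL2 and 6.01% in CXCL3 also occurred in another of the 3, and none of those of CXCL8 did. Several of their expected counts were fractional, while the sum of the 3 genes was a whole number in every library. That sum was 457, 450 and 473 counts under DMSO and 1291, 1083 and 1171 under NCD. It does not depend on how reads were split, and it rose by 1.08 ± 0.07 (SE) on the log2 scale (edgeR adjusted p = 1.15e-06). How reads were split among the paralogs was not tested.

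Within a library, the make-up of these transcripts also differed. CXCL2 took 15.97%, 17.38% and 15.01% of the summed CXCL1, CXCL2 and CXCL3 counts under DMSO and 29.41%, 28.26% and 24.53% under NCD. The share of CXCL1 was 71.8% ± 0.170 (SD, n = 3) with DMSO and 58.0% ± 3.46 (SD, n = 3) with NCD, and that of CXCL3 12.1% ± 1.22 and 14.6% ± 0.953 (SD, n = 3 each). For each 100 counts of CXCL8 there were 31.6 ± 0.964 (SD, n = 3) counts of the 3 paralogs with DMSO and 54.6 ± 1.87 (SD, n = 3) with NCD. These ratios do not depend on library scaling. Each gave p = 0.100 in a two-sided exact permutation test, the smallest that 3 against 3 libraries allow.

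**Figure D4:**
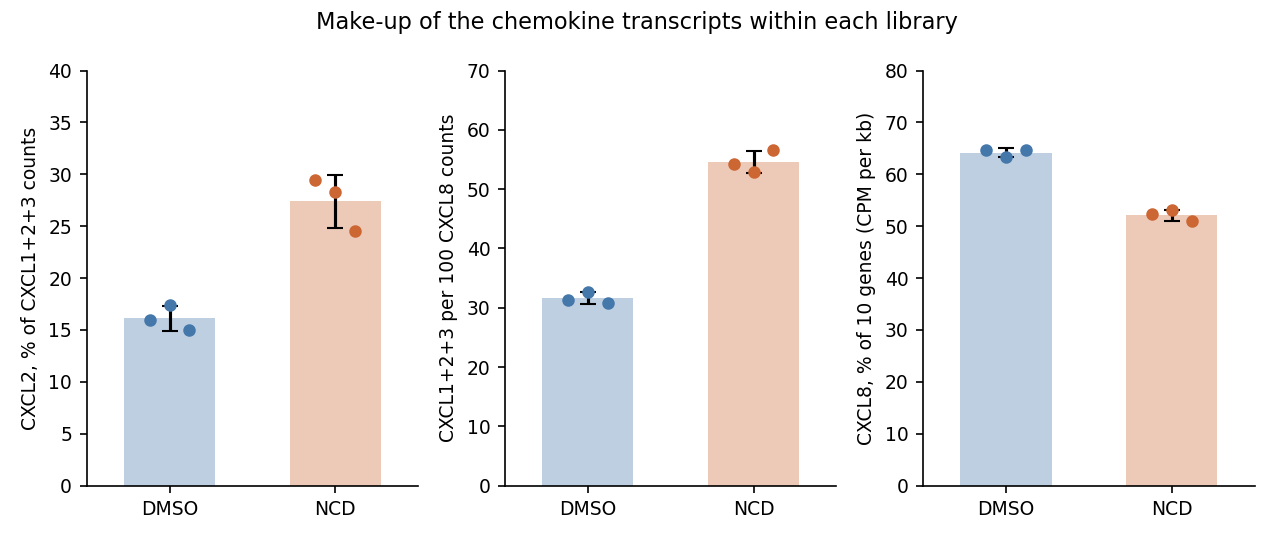
Make-up of chemokine transcripts within each library, as bars for the mean of 3 libraries, error bars for the SD and points for libraries. The CXCL2 share of the CXCL1, CXCL2 and CXCL3 counts is 16.1% with DMSO and 27.4% with NCD, the 3 paralogs per 100 CXCL8 counts are 31.6 and 54.6, and the CXCL8 share of the 10 genes per length is 64.2% and 52.1%.

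CPM per kilobase of exon compares levels between genes only roughly, since the length used is the union of exons over all annotated transcripts. For CXCL3 that union, 2219 bases, covers its whole gene span, while for CXCL2 it is 1500 bases of a 2.26 kb span. On this scale the order with DMSO was CXCL8 at 36.6, CXCL1 at 14.6, CXCL2 at 2.82, CXCL3 at 1.43 and CCL28 at 1.09. The libraries of neighbours in this order did not overlap. CXCL16 at 0.200, CCL5 at 0.128 and CX3CL1 at 0.115 overlapped with each other, and CCL20 stood at 0.0233. With NCD it was CXCL8 at 44.9, CXCL1 at 24.9, CXCL2 at 10.2, CXCL3 at 3.66, CXCL16 at 1.18 and CCL28 at 0.838, the last pair nearly meeting, while CX3CL1 at 0.196, CCL5 at 0.166 and CCL20 at 0.159 overlapped. On this scale CXCL16 was thus below CCL28 with DMSO and above it with NCD. In plain CPM the NCD libraries of CXCL16 and CCL28 overlapped, with means of 3.29 and 3.79. With DMSO, CCL28 at 4.95 CPM lay above CXCL2 at 4.23 and CXCL3 at 3.18 CPM. The sums and shares that follow depend on the same lengths. The 10 genes summed to 57.0 ± 2.87 (SD, n = 3) with DMSO and 86.2 ± 2.502 (SD, n = 3) with NCD. Of that sum, the 4 ELR chemokines made up 97.2% ± 0.307 and 97.1% ± 0.141 (SD, n = 3 each; p = 0.500, two-sided exact permutation test), while CXCL8 alone made up 64.2% ± 0.821 and 52.1% ± 1.07 (p = 0.100 in the exact test).

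The other genes of the chromosome 4 cluster were nearly silent. CXCL6, PF4V1 and PPBP were at 0 in all 6 libraries, and PF4 had 2 counts under DMSO and 1 under NCD. CXCL5, a further CXCR2 ligand that lies between PPBP and CXCL3, had 0, 0 and 0 counts under DMSO and 6, 2 and 3 under NCD. Against 3 counts over the DMSO group, the limit that a count of 0 allows, CXCL5 was at least 3.02-fold higher if its 11 NCD counts are taken as exact. The exact 95% interval of the ratio, which also covers the counting error of those 11, starts at 2.07. It was below the filter, and in the edgeR fit without a filter its adjusted p was 0.0202.

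CXCL16 (chromosome 17, 4733526 to 4739922, minus strand), the ligand of CXCR6 and a scavenger receptor for oxidised lipoprotein, had 3, 7 and 20 counts under DMSO and 82, 65 and 63 under NCD. The NCD libraries were alike and all higher, whereas DMSO library 3 lay above the other 2. The level went from 0.558 ± 0.479 CPM under DMSO to 3.29 ± 0.328 CPM under NCD (SD, n = 3 each), or 2.52 ± 0.43 (SE) as log2 fold change (edgeR adjusted p = 0.000625). CXCL16 passed the filter only with the help of the NCD libraries. It had fewer than 10 counts in 2 DMSO libraries and was left out of the fit that asked for 10 counts in every library. Without DMSO library 3 its log2 fold change was 3.44, a larger difference. MED11, a Mediator subunit gene, overlaps CXCL16 on the opposite strand, with 422, 315 and 373 counts under DMSO and 527, 445 and 435.74 under NCD and a log2 fold change of 0.06 (edgeR adjusted p = 0.695). Whether the counting used strand is not stated, and the part of MED11 reads in the CXCL16 counts was not tested.

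CX3CL1 (chromosome 16, 57372458 to 57385048, plus strand), or fractalkine, which binds CX3CR1, had 12, 13 and 11 counts under DMSO and 19.85, 26 and 28 under NCD. The groups were apart, by little for NCD library 1. Its level was 0.687 ± 0.0732 CPM under DMSO and 1.17 ± 0.261 CPM under NCD (SD, n = 3 each), or 0.76 ± 0.30 (SE) as log2 fold change (edgeR adjusted p = 0.0456). This p held in 4 of 15 other fits and ranged from 0.0175 to 0.550 among them. It was 0.0961, 0.0875 and 0.148 without DMSO library 1, 2 or 3, and 0.144 and 0.132 without NCD library 2 or 3. The difference of CX3CL1 therefore rests on a few counts.

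CCL28 (chromosome 5, 43376645 to 43412391, minus strand) showed 77, 97 and 86 counts under DMSO and 86, 57 and 100 under NCD, and the groups overlapped. Its level was 4.95 ± 0.470 CPM under DMSO and 3.79 ± 0.857 CPM under NCD (SD, n = 3 each). The log2 fold change came to -0.38 ± 0.19 (SE; edgeR adjusted p = 0.102), and the 95% interval from -0.81 to 0.05 includes both a fall and no difference. Without NCD library 3 it was -0.57 with an adjusted p of 0.0211 in the edgeR test.

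The remaining 3 members were at the limit of detection. CCL20 (chromosome 2, 227805739 to 227817564, plus strand) showed 0, 1 and 1 counts under DMSO and 6, 6 and 4 under NCD, so every NCD library was higher. Over each group this was 2 against 16 counts, a ratio of 6.60 relative to the scaled library sizes with a 95% interval from 1.55 to 59.2, which covers counting error only. The two-sided exact permutation p was 0.100, the smallest possible, and the edgeR fit without a filter gave an adjusted p of 0.0570.

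CCL5 (chromosome 17, 35871491 to 35880793, minus strand), or RANTES, had 6, 1.22 and 3 counts under DMSO and 7.06, 5.36 and 4.23 under NCD, and the groups overlapped. The ratio of summed counts was 1.32 with an interval from 0.563 to 3.25 (p = 0.600, exact permutation test), so neither a fall nor a rise was detectable at this depth. CCL2 (chromosome 17, 34255218 to 34257203, plus strand), or MCP-1, had 0, 2 and 0 counts with DMSO and 0 in each NCD library, at or under 3 counts in both groups, and no fold is given.

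The other chemokine ligands of the genome were largely silent in these cells. Of 36 further ligands, 22 were at 0 in every library, 10 had from 1 to 9 counts over all 6 libraries and only 4 had 10 or more. Those 4 were CCL24, CCL26, CXCL5 and CXCL14, and 2 of them passed the filter. CCL26 (eotaxin-3), an eosinophil attractant, had 1, 1 and 4 counts under DMSO and 16, 12 and 16 under NCD, or 2.53 ± 0.51 (SE) as log2 fold change (edgeR adjusted p = 0.00173), and it passed the filter only through the NCD libraries. CCL24 (eotaxin-2), which shares the receptor CCR3 with CCL26, had 25, 27 and 20 counts under DMSO and 14.07, 6 and 18 under NCD and fell by 1.20 on the log2 scale (SE 0.36; edgeR adjusted p = 0.0151). CCL24 passed the filter only with the help of the DMSO libraries, where it is high. With at least 10 counts required in every library, 0 of the 36 ligands were tested. The call of CCL24 was lost without DMSO library 2 (adjusted p = 0.0501 in edgeR's test) or NCD library 2 (log2 fold change -0.92). CXCL14 had 1 count with DMSO and 9 with NCD in all. CXCL10, the T cell attractant best known as an interferon target, had 0 counts under DMSO and 3, 0 and 1 under NCD, and CXCL9 was at 0 throughout.

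The receptors that the members bind were mostly not detected in the same cells. Of 23 chemokine receptor genes, 8 were at 0 in every library, among them CXCR1, the second CXCL8 receptor, and CX3CR1, and 7 had 10 or more counts. CXCR2, the shared ELR chemokine receptor, had 1 count with DMSO and 6 with NCD, and CCR6, the CCL20 receptor, at most 1 count in any library. Among the 3 receptors tested, 1 was called higher and 1 lower, and both owed their place in the test to the group where they were high, CCR1 to the DMSO and CCR10 to the NCD libraries. CCR1, a receptor of CCL5, had 60, 34 and 51 counts under DMSO and 7, 5 and 10 under NCD and fell by 2.98 on the log2 scale (SE 0.36; edgeR adjusted p = 6.68e-05). CCR10, the CCL28 receptor, had 5.11, 13.16 and 11.62 counts under DMSO and 40.53, 35.21 and 31.26 under NCD, or 1.55 ± 0.33 (SE) as log2 fold change (edgeR adjusted p = 0.00244). CCR10 counts are uncertain, since CNTNAP1 overlaps it on the opposite strand with 257 to 967 counts per library, and AC100793.3 on the same strand. CCRL2, an atypical receptor that presents chemerin, was the most abundant at 35.6 ± 2.47 CPM with DMSO and 36.6 ± 1.48 CPM with NCD (SD, n = 3 each), with a log2 fold change of 0.04 ± 0.08 (SE). Below the filter, CXCR6, the CXCL16 receptor, had 34 counts under DMSO and 8 under NCD, or 0.194 times as many (interval from 0.0776 to 0.427).

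For the lists that follow, the shares over all tested genes were 13.5% called higher and 17.5% lower, with a median of 0.04 on the log2 scale. At any fold the shares were 35.3% higher and 34.1% lower. Cytokines that induce chemokine genes moved in different directions. Of 10 listed, 6 passed the filter, of which 1 was called higher and 2 lower (2 higher and 4 lower at any fold), with a median log2 fold change of -0.55. IL6, the acute-phase cytokine that is itself an NF-κB target, rose from 4.32 ± 0.625 to 43.7 ± 2.61 CPM (SD, n = 3 each), a log2 fold change of 3.34 (edgeR adjusted p = 4.23e-08). IL1B, a strong inducer of CXCL8, fell by 1.15 and CSF2, the granulocyte-macrophage colony factor, by 2.17 on the log2 scale (edgeR adjusted p = 1.77e-06 and 4.31e-05). CSF3, the granulocyte colony factor, differed by 0.47 and LIF by -0.73 on the same scale, below the fold threshold. TNF had at most 5 counts in any library. Scaled by library totals, IL1B was at -0.95 and lost its call.

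The receptors of these inducers showed few calls. Of 14 tested, 1 was called higher and 1 lower (6 higher and 4 lower at any fold, median 0.09). TLR3, the sensor of double-stranded RNA, went from 6.19 ± 1.34 to 15.6 ± 2.74 CPM (SD, n = 3 each), a log2 fold change of 1.34, and IL1RAP, the accessory chain of the interleukin-1 receptor, fell by 1.38 on the log2 scale (edgeR adjusted p = 0.000145 and 1.52e-06). IL6ST and OSMR, the most abundant without a call, had log2 fold changes of -0.56 and -0.90 (edgeR adjusted p = 0.0427 and 9.27e-06). The groups were apart for OSMR but overlapped for IL6ST. NCD library 3 had 233 CPM of IL6ST, against 135 and 141 CPM in NCD libraries 1 and 2 and 206 CPM in DMSO library 1.

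Among 22 NF-κB pathway genes, 5 were called higher and 2 lower (12 and 6 at any fold, median 0.26). NFKB2, the p100/p52 precursor, rose from 39.0 ± 1.80 to 143 ± 6.18 CPM (SD, n = 3 each), a log2 fold change of 1.87, and MYD88, the adaptor of Toll-like and interleukin-1 receptors, by 1.31 (edgeR adjusted p = 4.37e-08 and 3.56e-07). NFKB1, the p105/p50 precursor, fell from 52.1 ± 4.24 to 12.3 ± 1.42 CPM (SD, n = 3 each), a log2 fold change of -2.08, and MAP3K7, the kinase TAK1, had -1.48 (edgeR adjusted p = 3.13e-07 and 1.84e-06). The 2 NF-κB precursor genes thus moved in opposite directions. IRAK1, a kinase of the interleukin-1 receptor, and TNIP1, a partner of the inhibitor TNFAIP3, were abundant without a call and had log2 fold changes of 0.20 and -0.43.

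Of 17 other transcription factors that act on inflammatory genes, 6 were called higher and 2 lower (10 and 4 at any fold, median 0.79). EGR1, an immediate-early factor, had a log2 fold change of 3.51, ATF3, a stress-induced factor, 3.21 and IRF1, an interferon regulatory factor, 2.04 (edgeR adjusted p from 3.03e-08 to 6.22e-08). FOSL1, the AP-1 subunit most abundant of the list with DMSO at 262 ± 7.46 CPM, fell by 1.15 on the log2 scale to 118 ± 4.30 CPM (SD, n = 3 each; adjusted p = 2.46e-07 in the edgeR test). STAT3 stood at 141 CPM in both groups, with a log2 fold change of 0.00 (standard error 0.06), and FOSL2 had 0.70. The call of FOSL1 was also lost with library totals, at -0.95.

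Regulators of mRNA stability, several of which bind AU-rich elements in chemokine mRNAs, gave 4 calls higher and 0 lower of 13 (5 higher and 7 lower at any fold, median -0.22). The 4 were DUSP1, a phosphatase that turns off p38, with a log2 fold change of 1.80, the decay factors ZFP36L2 at 1.33 and ZFP36 at 1.17, and ZC3H12A, the endonuclease regnase-1, at 1.23 (edgeR adjusted p from 9.41e-08 to 2.19e-05). HNRNPD, or AUF1, the most abundant of the list, went from 589 ± 6.41 to 301 ± 4.27 CPM (SD, n = 3 each), a log2 fold change of -0.97 that lay just under the fold threshold, and KHSRP, another decay factor, had 0.27.

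Of 13 proteases and inhibitors that process chemokines, 11 passed the filter, with 1 called higher and 3 lower (3 and 5 at any fold, median -0.43). ADAM10, a sheddase of membrane-bound CXCL16 and CX3CL1, fell from 213 ± 20.7 to 31.6 ± 3.78 CPM (SD, n = 3 each), or -2.75 ± 0.10 (SE) as log2 fold change (edgeR adjusted p = 6.12e-08). ADAM17, the other main sheddase, had -0.61, below the fold threshold. MMP14, a membrane-bound matrix protease, fell by 1.05 and TIMP3, a metalloprotease inhibitor, by 1.31 on the log2 scale, and DPP4, which trims the amino terminus of several chemokines, rose by 1.80 (edgeR adjusted p = 3.61e-07, 1.49e-06 and 0.000281). DPP4 had 9, 12 and 17 counts under DMSO and 63, 41 and 58 under NCD. It passed the filter only with the help of the NCD libraries, where it is high. With at least 10 counts required in every library, 0 genes of this list were called higher and 3 lower. FURIN, a proprotein convertase without a call, had a log2 fold change of 0.27. With library totals MMP14 was at -0.86 and without a call.

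**Figure D5:**
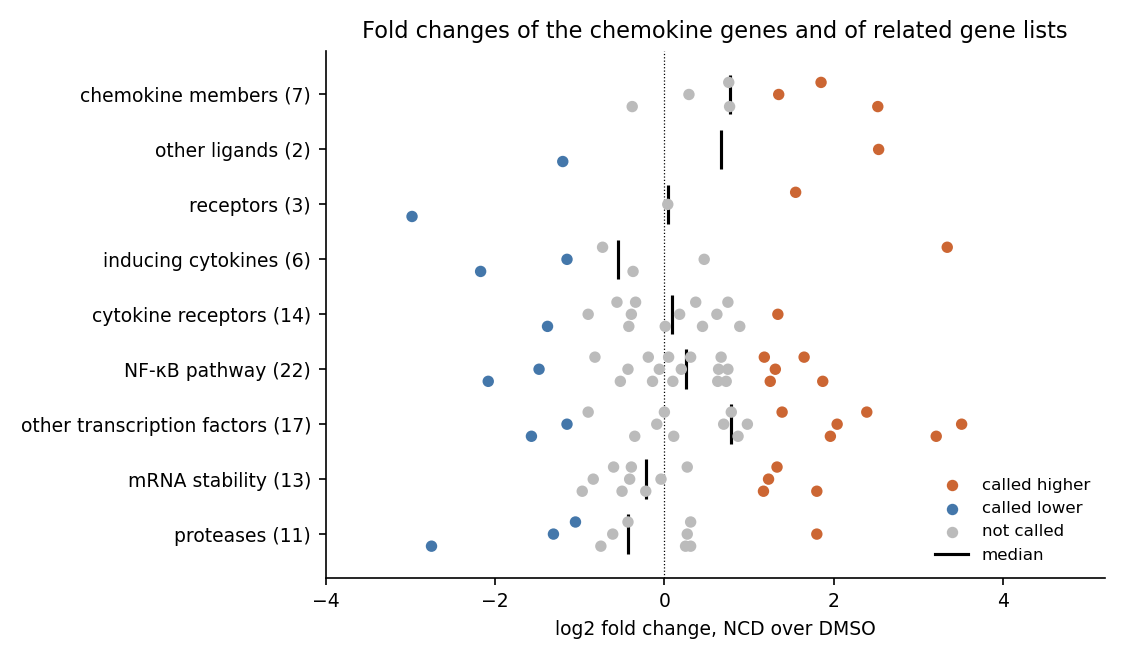
Log2 fold change, NCD over DMSO, of the 7 tested chemokine genes and of the tested genes of 8 related lists, 1 point per gene, with the number tested in brackets and a bar at the median. Orange points are called higher, blue lower and grey not called. The medians run from -0.55 for inducing cytokines to 0.79 for other transcription factors, with 0.77 for the chemokine genes.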

How the data were processed

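RNA-seq of 3 DMSO and 3 NCD libraries of MDA-MB-231 cells was analysed. The deposited values are expected counts per Ensembl gene, produced by the authors with HISAT2 alignment and RSEM counting and left without normalization. The submitters' processing notes name GRCh38 and hg38. The annotation release and strandedness are not given in the sources used here. In each library 25 stray lines without a gene were skipped. Symbols were found for 62666 of 63241 identifiers, and coordinates came from GENCODE release 29. The expected counts were rounded and tested with edgeR 4.0.16 (R 4.3.3) after filterByExpr (at least 10 counts, here 0.526 CPM, in 3 libraries), with TMM factors from 0.911 to 1.09, glmQLFit and glmQLFTest. Standard errors were obtained from the fold change and the root of F, and 95% intervals from the matching t quantile. CPM use the TMM-scaled library sizes. For genes below the filter, summed counts were compared by exact binomial (Clopper-Pearson) 95% intervals and by permutation tests in scipy 1.17.1. Intervals, and the limit of 3 counts for a count of 0, cover counting error only. The code was tested on simulated data. Named genes are the 10 members and, from each pathway list, up to 4 called genes with the smallest p and a mean of at least 1 CPM and the 2 most abundant genes without a call, plus further ligands and receptors given by their counts. CXCL9, CXCL10, CXCR1, CXCR2, CX3CR1, CCR6, TNF and cluster genes were named after their values were seen. An item that this rule covers is not reported here. The members and lists were chosen with earlier results of these data known. Alternatives were DESeq2 1.42.0, limma-voom (limma 3.58.1), RLE and library totals, filters, the replicate block, and leaving libraries out.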

Additional observations from a re-analysis of the deposited data

How the results depend on the processing

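CXCL2, CXCL3 and CXCL16 stayed called higher under each alternative fit that tested them, CXCL1 and CXCL8 kept an adjusted p below 0.05 with a log2 fold change under 1, and 0 members were called lower. The sum of CXCL1, CXCL2 and CXCL3 stayed called, with a log2 fold change from 1.04 to 1.28. With at least 10 counts required in every library, CXCL16 was not tested, 2 members were called higher, and 1376 of all genes were. Without a fold threshold 6 members were higher, and of all genes 5393 were higher and 5209 lower. Leaving out 1 library gave from 2014 to 2136 genes higher and from 2608 to 3005 lower. With library totals no pathway list's median changed sign. For CCL5 the log2 ratio of summed counts, 0.40, ran from -0.04 without DMSO library 2 to 1.17, so its direction changed. Same-numbered libraries of the 2 groups did not deviate together (correlations 0.182, -0.164 and 0.015), and nothing in the labels ties them. With the number as a replicate block, 2056 genes were higher and 2667 lower, 3 members were higher, CXCL2 had a log2 fold change of 1.85, and CX3CL1 an adjusted p of 0.0725 in edgeR's test. DESeq2 called 1925 genes higher and 2684 lower, and gave CX3CL1 an adjusted p of 0.172. Leaving out NCD libraries 2 and 3 together, whose descriptions name other lines, was chosen after seeing the data. It kept 3 members called higher, with log2 fold changes of 1.997 for CXCL2, 1.44 for CXCL3 and 2.67 for CXCL16, and CX3CL1 fell to 0.37 (adjusted p = 0.550 in edgeR's test), where the lone NCD library was assumed to vary like the DMSO libraries. CCL2, CCL5 and CCL20 held too few counts for a level to be measured.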
